A study of Mus musculus with 43 samples.

Results

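Expression in skeletal muscle was compared between 2 groups of female mice aged 15 months: Irs1-/- mice kept on dietary restriction (labelled KODR, 3 libraries) and wild-type Irs1+/+ mice fed ad libitum (labelled WTAL, 2 libraries). Genotype and diet therefore differed together. The Irs1 deletion is global, so every tissue of a KO mouse carries it. Restriction started at 10 weeks of age, was deepened weekly until food intake was 30% below that of the ad libitum mice, and lasted 12 months. All animals received the same standard chow, and the restricted animals were fed once a day in the late afternoon. The other muscle groups, KO mice fed ad libitum (KOAL, 3 libraries) and restricted wild-type mice (WTDR, 3 libraries), are given beside this comparison. The labels do not name which muscle was taken. The series holds 43 libraries from liver, muscle, brain and white adipose tissue.

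The members were the genes, or sets of overlapping genes, whose values were marked OK in both groups and reached an FPKM of at least 1 in at least one of them. FPKM, the read count scaled by transcript length and by the size of the library, is a level that can be compared between genes. The rule kept 14315 of 42349 entries, of which 620 join several genes. Of these, 14054 were above 0 in both groups and were tested. The other 261 were listed at 0 in one group (182 in WTAL and 79 in KODR) and have no log2 difference.

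IRS1 is a docking protein that passes the signal of the insulin and IGF1 receptors to phosphoinositide 3-kinase and AKT. In skeletal muscle this route drives glucose uptake, glycogen storage and protein synthesis, and it keeps FoxO transcription factors out of the nucleus, where they would switch on ubiquitin ligases of muscle wasting. Dietary restriction often lowers circulating insulin and shifts muscle between stored and ingested fuel over the day. In the mice of this study, the paper reported no effect of diet on fasting insulin.

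Each group has a single pooled FPKM with a 95% interval from the authors' software, so no value of a single animal can be shown and a spread between libraries can be read only from that interval. The median SD taken from these intervals was 35.0% of the FPKM in KODR and 41.9% in WTAL. Muscle genes dominated all 4 groups, with a summed FPKM of 135496 in WTAL and 207672 in KODR over 16 muscle identity genes, against 2.57 in WTAL liver. Irs1, the deleted gene, had an FPKM of 5.72 in WTAL, 6.31 in KOAL, 5.48 in WTDR and 5.82 in KODR. Its log2 difference between the group labelled KODR and WTAL was 0.02 (SE 0.44). Irs1 therefore did not separate the groups by their KO label, a single value per gene cannot tell its exons apart, and every direction below is that of the groups as labelled.

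Between the group labelled KODR and WTAL, 123 of 14054 entries (0.875%) passed an FDR of 10% in a two-sided Wald test on the log2 difference and are described as called. KODR was higher in 74 of them (0.527% of those tested) and lower in 49 (0.349%). The globin gene Hba-a1 had the largest called rise (log2 difference 5.21), and fat-making genes were also among the larger ones, with Elovl6 about 10.4-fold and Thrsp about 8.01-fold higher in KODR. The muscle ubiquitin ligase gene Trim63 was about 7.78-fold lower, and some genes of the extracellular matrix and of fat tissue also fell. Over all tested entries the median log2 difference was -0.04 and 48.2% lay above 0. The median SE was 0.81 over all tested entries and 0.42 over those called, so for many entries a difference of a few fold was not detectable. With a t distribution on 3 degrees of freedom in place of the normal, 1 entry was called higher and 0 lower. Without values per library, neither reference distribution can be checked.

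**Figure D1:**
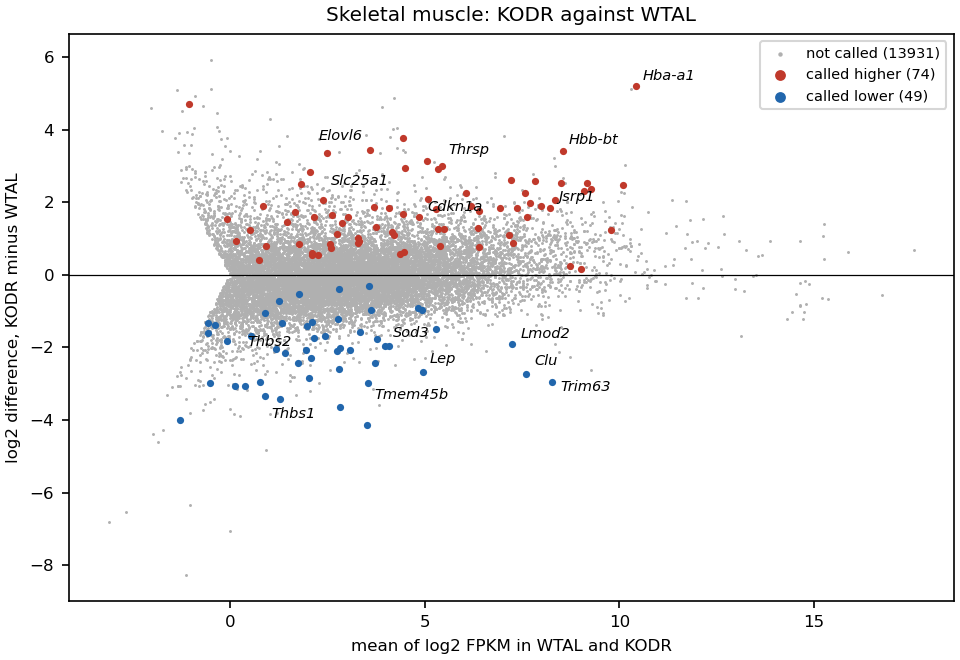
Log2 difference between KODR and WTAL (vertical axis) against the mean log2 FPKM of both groups (horizontal axis) for each tested entry in skeletal muscle. The 74 entries called higher are red, the 49 called lower are blue and the other entries are grey; Elovl6, Thrsp and Hba-a1 lie high in the cloud and Trim63, Clu and Thbs1 low.

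The rises included 3 genes of fatty acid and triglyceride synthesis. Elovl6, which lengthens palmitate to stearate, had an FPKM of 1.76 in WTAL (95% interval 0.896 to 2.63) and 18.3 in KODR (11.8 to 24.7), with 5.44 in KOAL and 11.5 in WTDR. The intervals of KODR and WTAL did not overlap, and both single groups lay between them. Its log2 difference was 3.37 (SE 0.44, called). Thrsp, a nuclear protein that promotes lipogenesis, went from 15.4 FPKM in WTAL to 124 in KODR, through 66.2 in KOAL and 59.7 in WTDR. It rose by 3.00 on the log2 scale (SE 0.32, called). Slc25a1, the mitochondrial citrate carrier that exports the carbon for fatty acid synthesis, went from 8.21 FPKM in WTAL to 63.0 in KODR, with 21.7 in KOAL and 19.2 in WTDR. Its log2 difference was 2.94 (SE 0.62, called). For each of these genes KODR was the highest of the 4 groups and WTAL the lowest. Fat tissue expresses them too, and in white adipose tissue Elovl6 had 3.44 FPKM in WTAL and 160 in KODR. Thrsp had 152 and 1276 FPKM there, and Slc25a1 138 and 858. The summed FPKM of 20 adipocyte genes in muscle was 4975 in WTAL, 6063 in KOAL, 3975 in WTDR and 8210 in KODR, with none of them at 0 in any group. Car3, a carbonic anhydrase that muscle fibres also express, made 2716 of the sum in WTAL and 5126 in KODR. The whole sum equalled 12.7% of the sum in white adipose tissue for WTAL and 26.8% for KODR. Of 9 tested brown and beige fat genes, 7 lay above 0 (median 0.77) and 0 were called. The summed FPKM of 13 such genes was 1118 in WTAL muscle and 1544 in KODR muscle, against 97.2 in WTAL white adipose tissue. The part of adipocyte RNA, white or brown, in the rise of Elovl6, Thrsp and Slc25a1 was not tested.

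The remaining members of the pathway mostly lay above 0 with wide intervals. Of 26 tested members of the fatty acid and triglyceride synthesis list, 21 had a log2 difference above 0 and the median was 0.88, against -0.04 over all entries. Elovl6, Thrsp and Slc25a1 were the 3 called higher, and 0 were called lower. Fasn, the fatty acid synthase, had an FPKM of 35.2 in WTAL, 176 in KOAL, 172 in WTDR and 497 in KODR. Its intervals reached 0 in every group, and its log2 difference of 3.82 (SE 1.39) was not called. Acly, which turns citrate into acetyl-CoA, had 8.06 FPKM in WTAL and 23.5 in KODR. Dgat1, which makes triglyceride from diacylglycerol, had 13.4 and 52.3. Agpat2, an acyltransferase earlier in triglyceride synthesis, had 26.4 and 141. None of Acly, Dgat1 and Agpat2 was called. Mlxipl, the carbohydrate-responsive transcription factor ChREBP, had 29.2 FPKM in WTAL and 30.2 in KODR, and Gpam, which starts glycerolipid synthesis, had 43.1 and 27.6. The lipid droplet and lipolysis list gave 0 calls in 16 tested members, with a median of 0.16.

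**Figure D2:**
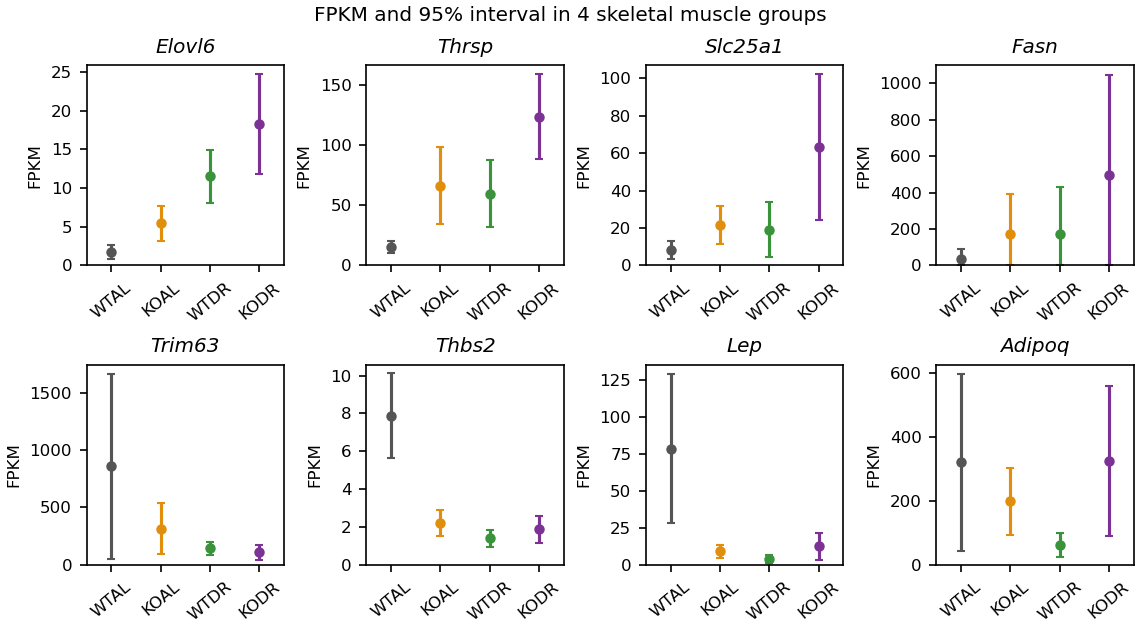
Pooled FPKM (points) with the authors' 95% interval (bars) in the WTAL, KOAL, WTDR and KODR muscle groups, each panel with its own axis from 0. KODR is highest for Elovl6, Thrsp, Slc25a1 and Fasn; WTAL is highest for Trim63, Thbs2 and Lep, whereas Adipoq is alike in WTAL and KODR.

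Promoter windows are shown for Elovl6 and Slc25a1, as fat-making genes that rose, and for Trim63, as the muscle gene that fell. Each window holds the 250 bases before the start site in RefSeq (GRCm38.p6), written 5′ to 3′ on the gene's strand. Capitals mark matches on either strand to any of 4 motifs. The E-box that ChREBP and clock factors bind, among other proteins, was searched as CACGTG. The sterol response element, known from genes of cholesterol and fatty acid synthesis, was searched as TCACNCCAC. The forkhead core, which transcription factors of the FoxO family recognise, was searched as TGTTTAC. The TATA box, which places the start of transcription in many tissue-specific genes, was searched as TATAAA. The Elovl6 window is chr3:129532136-129532385 on the plus strand, that of Slc25a1 chr16:17928220-17928469 on the minus strand, and that of Trim63 chr4:134314870-134315119 on the plus strand.
Elovl6: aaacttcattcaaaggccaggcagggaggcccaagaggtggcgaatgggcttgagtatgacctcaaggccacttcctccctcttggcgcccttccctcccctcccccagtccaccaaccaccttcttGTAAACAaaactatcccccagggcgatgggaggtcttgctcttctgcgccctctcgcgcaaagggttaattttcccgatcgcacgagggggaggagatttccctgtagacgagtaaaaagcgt
Slc25a1: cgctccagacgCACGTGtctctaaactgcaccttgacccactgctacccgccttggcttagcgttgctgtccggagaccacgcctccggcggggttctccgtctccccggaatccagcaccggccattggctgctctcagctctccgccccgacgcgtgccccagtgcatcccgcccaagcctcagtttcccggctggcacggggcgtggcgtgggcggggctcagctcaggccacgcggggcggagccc
Trim63: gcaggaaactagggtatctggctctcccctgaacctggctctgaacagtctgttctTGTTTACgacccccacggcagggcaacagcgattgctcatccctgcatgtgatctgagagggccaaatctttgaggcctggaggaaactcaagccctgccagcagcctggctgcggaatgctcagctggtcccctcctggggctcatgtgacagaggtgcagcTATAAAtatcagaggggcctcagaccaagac

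The Trim63 window had a forkhead core at bases -194 to -188 and a TATA box at -31 to -26 from the start site. The Elovl6 window had a forkhead core on the opposite strand at -123 to -117, and that of Slc25a1 an E-box at -239 to -234. Of 32851 promoter windows of this length, 3.17% held the forkhead core, 6.02% the E-box, 12.4% the TATA box and 1.05% the sterol response element, which was in none of these 3 windows. A match describes the letters and says nothing of binding in these samples.

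Genes of muscle wasting and of the contractile apparatus fell in part. Trim63 (MuRF1), a ubiquitin ligase that marks myofibrillar proteins for degradation, had an FPKM of 860 in WTAL (54.3 to 1666), 315 in KOAL, 143 in WTDR and 111 in KODR (45.0 to 176). The WTAL interval was wide and overlapped that of KODR, and the log2 difference was -2.96 (SE 0.80, called). Fbxo32 (atrogin-1), the other classical ligase of muscle wasting, had the same order, with 196, 147, 64.5 and 45.9 FPKM. It was not called (log2 difference -2.10, SE 0.78). Lmod2, which sets the length of thin filaments, went from 294 FPKM in WTAL to 78.3 in KODR, with 151 in KOAL and 64.4 in WTDR. It fell by 1.91 on the log2 scale (SE 0.50, called). These values were the exception among structural genes. Of 36 tested sarcomere and Z-disc genes, 2 were called lower (Trim63 and Lmod2), 0 were called higher and the median was -0.12.

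Some muscle genes rose. Actc1, the cardiac actin that developing and regenerating fibres also express, went from 92.7 FPKM in WTAL to 559 in KODR, with 227 in KOAL and 273 in WTDR (log2 difference 2.59, SE 0.71, called). It was the 1 call among 13 tested genes of embryonic and regenerating fibres, 11 of which lay above 0. Jsrp1, a protein of the triad junction that links excitation to calcium release, went from 156 FPKM to 565, with 400 in KOAL and 397 in WTDR (log2 difference 1.85, called). Cdkn1a, the cell cycle inhibitor p21, had 16.7 FPKM in WTAL, 54.1 in KOAL, 16.4 in WTDR and 50.4 in KODR. Both KO groups were high and both wild-type groups low, and its log2 difference was 1.59 (SE 0.43, called). Mt1, a metal-binding metallothionein, had the same arrangement, with 16.5 FPKM in WTAL, 79.6 in KOAL, 13.7 in WTDR and 70.7 in KODR (log2 difference 2.10, SE 0.47, called). Its neighbour Mt2 had 38.1 FPKM in WTAL and 35.3 in KODR and did not pass. Of 32 tested genes of atrophy and growth control, 2 were called higher (Cdkn1a and Mt1), 1 lower (Trim63) and the median was -0.11.

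Fibre type and insulin signalling gave no calls. Only 0.875% of all tested entries were called, so lists of up to 40 entries would mostly hold none. The absence of calls in such lists is therefore no result about their genes. In the slow fibre list 7 of 15 members lay above 0 (median -0.15), and in the fast fibre list 15 of 18 (median 0.63), with 0 calls in either. Myh7, the slow myosin heavy chain, had 123 FPKM in WTAL, 84.8 in KOAL, 32.6 in WTDR and 83.6 in KODR. Of 35 tested insulin signalling genes, 12 lay above 0, 0 were called and the median was -0.12. Slc2a4, the insulin-regulated glucose transporter GLUT4, had 232 FPKM in WTAL and 233 in KODR (log2 difference 0.01, SE 0.75). Insr, the insulin receptor, had 11.9 and 6.74 (log2 difference -0.82, SE 0.61). The glycolysis and glycogen list (34 tested, median 0.05) and the fatty acid oxidation and uptake list (40 tested, median -0.12) also held 0 calls in this comparison.

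Most matrix genes had lower values in the group labelled KODR. Of 39 tested collagen and matrix genes, 36 lay below 0, the median was -0.71, 3 were called lower and 0 higher. Thbs2, a matricellular thrombospondin that restrains vessel growth, had an FPKM of 7.88 in WTAL (5.63 to 10.1), 2.19 in KOAL, 1.39 in WTDR and 1.88 in KODR (1.17 to 2.60). All 3 other groups lay below the WTAL interval, and the log2 difference was -2.06 (SE 0.34, called). Thbs1, its relative and an activator of latent TGF-beta, went from 7.99 FPKM in WTAL through 2.89 and 1.11 to 0.748 in KODR (log2 difference -3.42, SE 0.95, called). Fbln5, which organises elastic fibres, fell from 4.02 FPKM in WTAL to 1.60 in KODR, with 1.86 in KOAL and 1.27 in WTDR (log2 difference -1.32, called). Efemp1, another fibulin, fell from 17.2 to 4.12 FPKM (log2 difference -2.06, SE 0.61). Sod3, the superoxide dismutase of the extracellular space, had 31.1 FPKM in WTAL, 9.60 in KOAL, 4.62 in WTDR and 8.03 in KODR (log2 difference -1.95, SE 0.38, called). Col1a1, the main chain of fibrillar collagen, had 7.18 and 2.69 FPKM and did not pass. Fmod, a collagen-binding proteoglycan, lay the other way with 4.24 FPKM in WTAL and 9.92 in KODR, and did not pass.

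Adipocyte genes split into members that were lower in the group labelled KODR and members that were not. Lep, the hormone leptin, had an FPKM of 78.7 in WTAL (28.1 to 129), 9.24 in KOAL, 4.03 in WTDR and 12.4 in KODR (3.31 to 21.5). Only the WTAL value was high, and the log2 difference was -2.67 (SE 0.70, called). Npr3, the clearance receptor of natriuretic peptides, had 17.1 FPKM in WTAL and 2.80 in KODR (log2 difference -2.60, SE 0.58, called). Sfrp5, a secreted Wnt inhibitor of fat tissue, had 59.0 and 11.7 FPKM, and Mest, which marks expanding fat, had 37.7 and 4.29. Neither Sfrp5 nor Mest was called. Adipoq, the hormone adiponectin, had 321 FPKM in WTAL and 326 in KODR, and Cidec, a lipid droplet protein, had 190 in each. Plin1, which coats lipid droplets in adipocytes, had 57.7 FPKM in WTAL and 134 in KODR and was not called (log2 difference 1.22, SE 0.61). Over 20 adipocyte genes, 10 lay above 0 and 10 below, 2 were called lower and 0 higher. The adipocyte sum given above, in which Car3 had the largest share, was higher in KODR than in WTAL, and its part in the Lep and Npr3 values was not tested. In a bulk sample, fewer cells of a type and less RNA per cell cannot be told apart.

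Other genes that fell are known from fat tissue, secretion or growth signals. Tmem45b, a transmembrane protein, went from 32.6 FPKM in WTAL to 4.17 in KODR (log2 difference -2.97, SE 0.57, called) and had 224 FPKM in WTAL white adipose tissue. Wisp2, a secreted protein of the CCN family, went from 14.0 to 3.23 FPKM (log2 difference -2.11, SE 0.58). Nedd9, a scaffold of integrin signalling, went from 7.77 to 1.44 FPKM (log2 difference -2.43, SE 0.66). Clu, the secreted chaperone clusterin, went from 496 to 75.3 FPKM with a WTAL interval of 36.1 to 956 (log2 difference -2.72, SE 0.81). Hp, haptoglobin, fell from 65.8 to 23.4 FPKM, and Serpina3n, an acute phase protease inhibitor, from 17.5 to 5.84 FPKM. Clu, Hp and Serpina3n were the 3 calls among 14 tested acute phase and serpin genes, whose median was -0.32.

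Of the immune cell lists, those of MHC class II, of B cells, and of macrophages and neutrophils lay mostly below 0. That of T cells and NK cells did not (4 of 7 tested members above 0, median 0.01, 0 calls). All 8 members of the MHC class II list, genes that serve antigen presentation by B cells, dendritic cells and macrophages, had a log2 difference below 0 (median -1.45), with 0 calls. H2-DMb2, a class II gene that the list does not hold, was called lower, with 5.93 FPKM in WTAL, 0.921 in KOAL, 1.08 in WTDR and 0.589 in KODR (log2 difference -3.33, SE 0.63). It has a close relative in H2-DMb1, so its reads may be shared and its value is uncertain. H2-Aa, the alpha chain of one of these molecules, had 142 FPKM in WTAL, 40.6 in KOAL, 38.8 in WTDR and 38.0 in KODR (log2 difference -1.90, SE 0.63, not called). The 3 other groups were alike, and WTAL stood above them. Of 14 tested B cell and antibody genes, 10 lay below 0 and 1 was called: Cd79a, a chain of the B cell receptor, with 9.46 FPKM in WTAL and 1.93 in KODR (log2 difference -2.29, SE 0.67). The list was split, with 4 members above 0, up to a log2 difference of 2.77, and 0 called higher. Of its 7 protein coding entries, 0 lay above 0. In the Wald test 1 member was higher and 5 lower at an unadjusted p under 0.05. The summed FPKM of the 14 genes was 625 in WTAL, 1222 in KOAL, 304 in WTDR and 494 in KODR. Of 23 tested macrophage and neutrophil genes, 17 lay below 0 and Lyz1, a lysozyme, was the 1 called lower (10.9 to 1.53 FPKM, log2 difference -2.84). The other 6 lay above 0, and 0 were called higher. At an unadjusted p under 0.05 in the Wald test, 4 members were higher and 5 lower. The neutrophil genes S100a9 and Ngp went up, from 3.13 to 17.3 FPKM and from 0.129 to 1.53 FPKM. KOAL held their highest values, 364 and 42.1 FPKM. Bst2, the interferon-induced tetherin, rose from 4.44 to 7.96 FPKM (log2 difference 0.84, SE 0.15, called). It was the 1 call among 17 tested interferon response genes, whose median was -0.20.

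**Figure D3:**
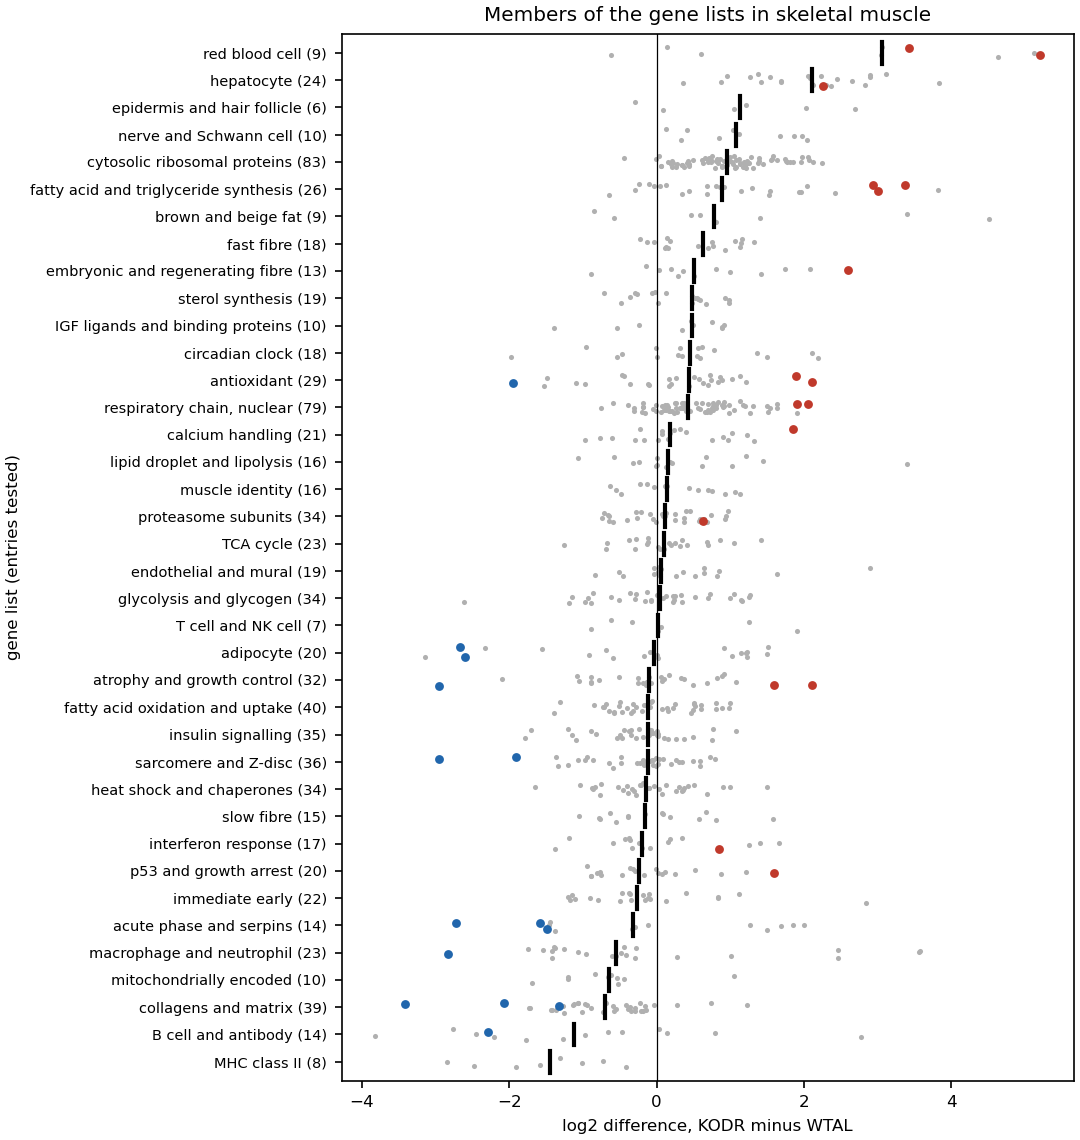
Log2 difference between KODR and WTAL (horizontal axis) of each tested member of the gene lists (vertical axis, number tested in brackets), with list medians as black bars and called entries in red (higher) or blue (lower). The medians run from -1.45 for MHC class II genes to 3.06 for red blood cell genes.

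Ribosomal protein and respiratory chain genes lay above 0 with few calls. Of 83 cytosolic ribosomal protein genes, 81 had a log2 difference above 0 and the median was 0.96, with 0 passing the FDR and 19 at an unadjusted p under 0.05. Rps26, a protein of the small subunit, had 123 FPKM in WTAL, 314 in KOAL, 193 in WTDR and 429 in KODR (log2 difference 1.81, SE 0.61, not called). Rpl37, of the large subunit, had 17.5 FPKM in WTAL and 68.9 in KODR (log2 difference 1.98, SE 0.66, not called). Processed copies of ribosomal protein genes were among the calls, such as Rps26-ps1, with 239 FPKM in WTAL and 1379 in KODR. Reads of such copies and of their parent genes are hard to tell apart, so their values are uncertain. Of 79 nuclear genes of the respiratory chain, 66 lay above 0 (median 0.42) and 2 were called. Ndufs5, of complex I, went from 160 to 662 FPKM, with 696 in KOAL and 402 in WTDR (log2 difference 2.05, SE 0.46, called). Cox6b1, of complex IV, went from 132 to 495 FPKM (log2 difference 1.91, called). Mitochondrially encoded genes lay the other way, with 9 of 10 tested entries below 0 and a median of -0.65, with 0 calls.

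Transcript length moved with these values. Among protein coding entries with a transcript under 750 bases, 78.3% had a log2 difference above 0 and the median was 0.66. The median fell through every length class, to -0.48 at 7000 bases or more, where 17.8% lay above 0. The same order was seen in KOAL and WTDR against the same WTAL group, with medians of 0.49 and 0.44 in the shortest class and -0.37 and -0.36 in the longest. Ribosomal protein and respiratory chain genes are short and collagens long. After subtracting the median of the same length class, a choice made after the data were seen, the list median was 0.57 for ribosomal protein genes (67 of 83 above 0), 0.13 for the respiratory chain (48 of 79), -0.43 for collagens and matrix (5 of 39) and 1.03 for fatty acid and triglyceride synthesis (25 of 26). Calls were made with a variant, in which entries without a length, such as those joining several genes, took the overall median instead. In this variant the list median was 0.73 for ribosomal protein genes (70 of 83 above 0). It was 0.95 for fatty acid and triglyceride synthesis (24 of 26). There Ndufs5, Cox6b1, Jsrp1, Actc1, Bst2, Hba-a1, Hbb-bt, Thbs1, Fbln5 and Nedd9 did not pass. Elovl6, Thrsp, Slc25a1, Trim63, Lmod2, Thbs2, Sod3, Lep, Npr3, Cdkn1a and Mt1 did pass. The part of transcript length in these results was not tested further.

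**Figure D4:**
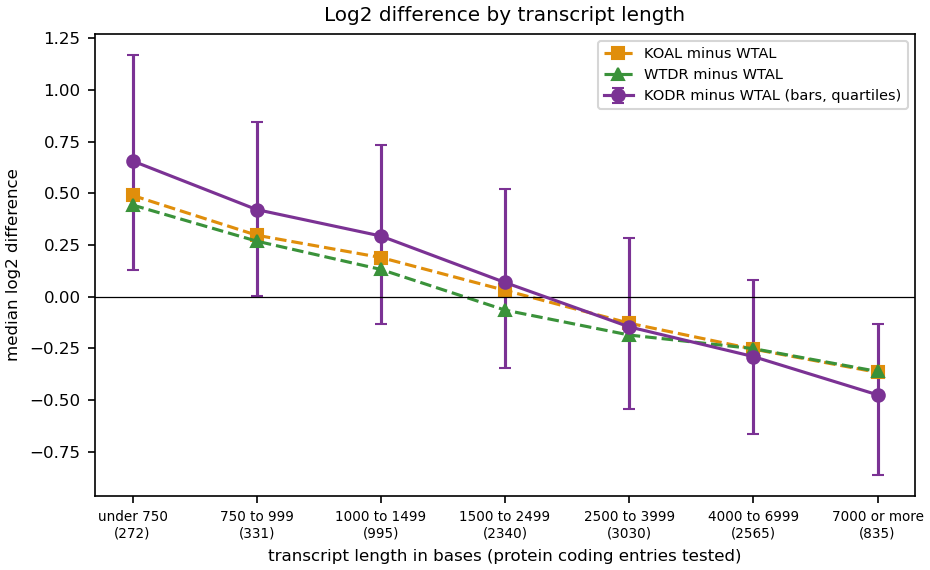
Median log2 difference (vertical axis) of protein coding entries by transcript length class in bases (horizontal axis, number of entries in brackets), for KODR, KOAL and WTDR, each against WTAL; bars are quartiles for KODR. All 3 lines fall from the shortest to the longest class, for KODR from 0.66 to -0.48.

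Markers of blood and of other tissues also differed between the groups. The alpha globin gene Hba-a1 had an FPKM of 226 in WTAL (78.3 to 373), 3856 in KOAL, 407 in WTDR and 8347 in KODR (0 to 23382). Both KO groups were high, with intervals that reached 0, and the log2 difference was 5.21 (SE 1.38, called). The beta globin gene Hbb-bt went from 113 to 1221 FPKM, with 963 in KOAL and 188 in WTDR (log2 difference 3.43, SE 0.83, called). Alas2, which starts heme synthesis in erythroid cells, had 2.98 FPKM in WTAL and 74.1 in KODR and was not called. The summed FPKM of 11 red blood cell genes was 1114 in WTAL, 11767 in KOAL, 1736 in WTDR and 20470 in KODR. Slc4a1, the anion exchanger of the red cell membrane, was listed at 0 in WTAL and had 0.952 FPKM in KODR. In liver, the same red blood cell sum was 2751 in WTAL and 12154 in KODR.

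All 24 tested hepatocyte genes lay above 0 (median 2.11), with 1 call. Cyp2e1, a cytochrome P450, went from 30.5 to 146 FPKM, with 95.4 in KOAL and 102 in WTDR (log2 difference 2.26, SE 0.63, called). Fat tissue expresses Cyp2e1 too, with 865 FPKM in WTAL white adipose tissue against 3436 in WTAL liver. Alb, serum albumin, had 5.52 FPKM in WTAL and 23.3 in KODR, but 987 in WTDR. The summed FPKM of 34 hepatocyte genes was 308 in WTAL, 506 in KOAL, 4722 in WTDR and 731 in KODR. In liver the same sum was 118846 in WTAL and 245393 in KODR. The muscle sum thus equalled 0.259% of the liver sum for WTAL and 0.298% for KODR. The 10 tested nerve and Schwann cell genes lay above 0 as well (median 1.08, 0 calls), with a sum over 14 genes of 105 in WTAL and 224 in KODR. These sums moved with the comparison, and their part in single genes was not tested. A filter left out every entry at least 10 times higher in WTAL liver, brain or adipose tissue than in the higher of KODR and WTAL muscle. With it, 69 entries were called higher and 47 lower. Adipocyte genes can fall short of that cutoff, as Lep did with 78.7 FPKM in WTAL muscle and 616 in WTAL white adipose tissue. The adipocyte sum in WTAL muscle was 12.7% of that in adipose tissue, so this filter could not set fat tissue apart.

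**Figure D5:**
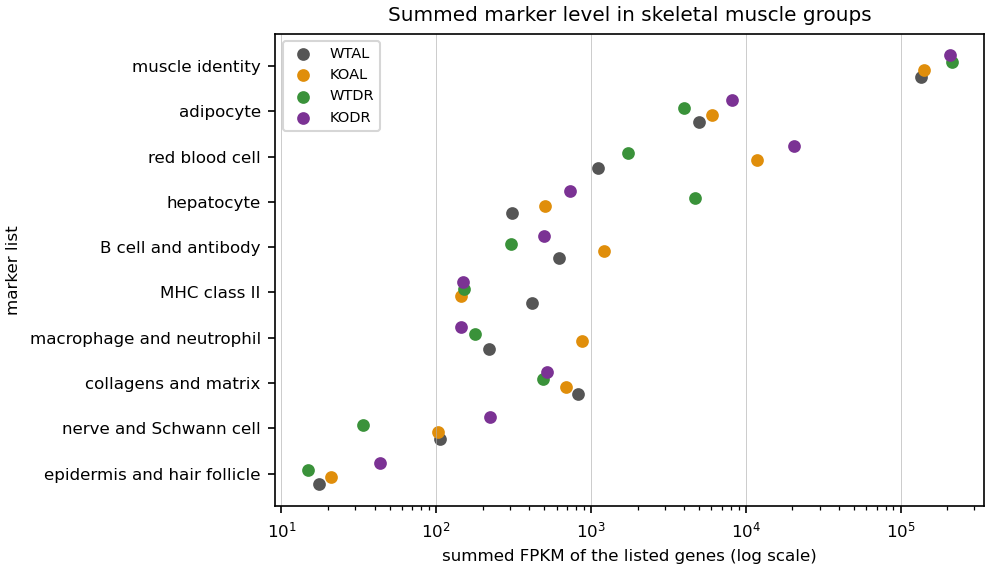
Summed FPKM of marker genes (horizontal axis, log scale) for each marker list (vertical axis) in the 4 muscle groups. Red blood cell markers were at 20470 in KODR and 1114 in WTAL, and hepatocyte markers highest in WTDR at 4722.

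The clock list gave 0 calls, and its members with the smallest p had values that followed the diet label. Dbp, an output factor of the clock, had 26.7 FPKM in WTAL, 25.8 in KOAL, 125 in WTDR and 122 in KODR (log2 difference 2.19, SE 0.85, not called). Arntl, which encodes the core activator BMAL1, had 9.07, 7.28, 3.05 and 2.30 FPKM in the same order (log2 difference -1.98, SE 0.62, not called). Of 18 tested clock genes, 13 lay above 0 and the median was 0.45. The paper gives the time of feeding, but neither it nor the labels give a time of sampling.

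Each single group is compared with the same WTAL group, so the comparisons share their reference. KOAL differed from WTAL in 96 of 14102 entries (0.681%; 0.454% higher and 0.227% lower), and WTDR in 197 of 14089 (1.40%; 0.795% higher and 0.603% lower). Of the 74 entries called higher in KODR, 54 had KODR as the highest of the 4 groups and 59 had WTAL as the lowest. Of the 49 called lower, 24 had KODR as the lowest group and 46 had WTAL as the highest. The called entries were picked for a difference between KODR and WTAL, which by itself favours these 2 groups as the extremes. The same shares over all tested entries were not counted, so no conclusion is drawn from these counts. Against KOAL, which differs from KODR in diet only, 70 of 14008 entries (0.500%) were called, 0.214% higher and 0.286% lower. Against WTDR, which differs in genotype only, 313 of 14021 (2.23%) were called, 0.884% higher and 1.35% lower, and WTDR is the group with the high hepatocyte sum. Elovl6 was higher in KODR than in KOAL by 1.75 on the log2 scale and was called there, while its difference of 0.66 from WTDR was not called. Cdkn1a was 1.62 above WTDR, a called difference, and differed from KOAL by -0.10, which was not called.

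The interaction of genotype and diet, the genotype difference under restriction less that under ad libitum feeding, was called in 54 of 14547 entries (0.371%). It was above 0 in 30 of them (0.206%) and below 0 in 24 (0.165%). It holds the same WTAL value as the comparison of KODR with WTAL that picked out most named genes, so they are not independent of each other. Thbs2 was 1.85 lower in KOAL and 2.50 lower in WTDR than in WTAL on the log2 scale, and only 2.06 lower in KODR, an interaction of 2.28 (SE 0.48, called). For Lep the interaction was 4.71 (SE 0.91, called). The fat-making genes had smaller values, with -0.96 for Elovl6 (SE 0.57), -1.05 for Thrsp (SE 0.58) and 0.32 for Slc25a1 (SE 0.89), and none of them was called for it.

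Small RNA genes were among the calls. Of 98 tested small RNA entries, 9 were called (9.18%), against 0.829% of 10368 protein coding entries. The libraries were selected for polyadenylated RNA, which small nuclear and nucleolar RNAs lack. Gm22505, annotated as a small nuclear RNA of 108 bases, had 14.7 FPKM in WTAL, 62.0 in KOAL, 30.4 in WTDR and 111 in KODR. The entry that joins Gas5, a small nucleolar RNA host gene, with the RNAs in its introns had 150, 493, 211 and 867 FPKM in the same order. Over the called entries, the median SE was 0.18 for small RNAs and 0.42 for protein coding genes. A small SE favours a call, and the SE over all tested entries of each class was not compared. Of the 123 calls, 25 were under 2-fold and 10 had an SE below 0.1.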

How the data were processed

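Polyadenylated RNA from liver, skeletal muscle, brain and white adipose tissue was sequenced on an Ion Proton instrument. The authors trimmed reads with cutadapt 1.5 and sickle, aligned them to GRCm38 with BBmap and ran Cuffdiff 2.2.1, which corrected for reads with several matches and normalised libraries by a geometric mean. They deposited 1 table with, for each of 16 groups, a pooled FPKM, the bounds of a 95% interval and a status. No read counts entered the analysis, so sequencing depth is unknown and the deposited intervals alone set the precision. Samples were grouped by GEO's labels alone. Nothing in the labels says how replicates were housed or batched, and the intervals may hold technical as well as biological spread.

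The analysis used Python 3.11.15, numpy 2.4.6, pandas 2.3.3, scipy 1.17.1 and matplotlib 3.10.9. The SD was the upper bound less the FPKM, divided by 2. Log2 differences were tested with a two-sided Wald test (delta method SE, normal distribution), Benjamini-Hochberg adjusted over all tested entries at an FDR of 10%. The test was tried on simulated data first. Their noise on the log scale had the deposited relative SD, so the normal distribution held by construction. That trial could therefore not check the normal distribution for the real data. Tested entries had FPKM above 0 in all compared groups and at least 1 in one of them. The interaction was tested likewise. Transcript lengths and gene classes came from GENCODE M21, with the longest coding transcript of a gene.

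The comparison, the 39 gene lists and the rules were chosen with earlier results of these data known. Named genes are Irs1, muscle genes the study names, up to 15 called entries per direction with the largest difference, up to 10 with the highest level, called list members, and up to 4 members per list with the smallest p. Other list members named in the text, with Slc4a1, Gpam, Car3 and Mt2 among them, and H2-DMb2 were chosen after their values were seen.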

Additional observations from a re-analysis of the deposited data

Results flagged for a closer look

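For 14 of the named genes the interaction of genotype and diet in skeletal muscle passed the FDR of 10% (two-sided Wald test, Benjamini-Hochberg adjusted over 14547 entries). The test asks whether the genotype difference under restriction differs from that under ad libitum feeding. These calls rest on the normal distribution. With a t distribution, only 1 interaction above 0 and 2 below 0 were called over all entries, and none of these 14 genes was among them. The value was above 0 for 11 of them. Most of these genes were named for their difference between KODR and WTAL, and the interaction holds the same WTAL value, which favours the opposite sign. Among genes of matrix and secretion it was 2.28 for Thbs2, 2.49 for Sod3 and 4.08 for Wisp2. Among genes of fat tissue it was 4.71 for Lep, 3.18 for Npr3 and 4.36 for Sfrp5. Serpina3c, an acute phase inhibitor, had 3.62, and its FPKM was 7.47 in WTAL, 2.52 in KOAL, 1.66 in WTDR and 6.91 in KODR. Cep85l, a centrosomal protein, had 3.25, and Kcnk3, a potassium channel, had 1.25. For the myelin genes Mbp and Prx it was 4.05 and 3.73. Their FPKM in WTDR, 6.46 and 1.06, was the lowest of the 4 groups, as was the nerve and Schwann cell sum of 33.6.

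The value was below 0 for 3 genes that liver expresses strongly, with -6.71 for Alb, -5.66 for Apoa1 and -3.47 for H2-Q10. For these, WTDR was the highest group, at 987, 653 and 56.3 FPKM, beside the hepatocyte sum of 4722 in that group. The part of other tissues in these interactions was not tested.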

How the results depend on the processing

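No paired analysis was possible because the deposited values are pooled per group and carry no replicate number, and for the same reason no replicate could be left out. The main counts are 74 entries higher and 49 lower in KODR than in WTAL, and 30 above and 24 below 0 for the interaction. With a t distribution they became 1 and 0, and 1 and 2. With the SD divided by the square root of the number of libraries they became 698 and 605, and 210 and 193. With a pseudocount of 0.1 they became 285 and 139, and 173 and 339; with a pseudocount of 1, 253 and 111, and 158 and 351. Intervals that do not overlap gave 139 higher entries. Leaving out genes of other tissues left 11 of the interactions below 0. Of alternatives added after the data were seen, a relative SD of at least its lower quartile gave 16 and 9, and 9 and 10; protein coding entries alone gave 47 higher. The other alternatives stayed within 1.5 times the main count. Of 52 named genes that were called, 0 changed direction under any alternative run. Only centring, on the median or within transcript length classes, could have turned a direction. The other alternatives cannot change the sign of a log2 difference. All 52 lost the call with the t distribution, 34 with the raised SD and 17 with centring within transcript length classes (overall median for entries without a length); Trim63 lost it under the first of these, under the raised SD and where intervals must not overlap. Elovl6, Thrsp and Slc25a1 lost it only with the t distribution. Sequencing depth is unknown, so what it limits could not be assessed.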
